A study of Mus musculus with 4 samples.

Results

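The genes described here carry fatty acids into mitochondria and peroxisomes, shorten them by beta-oxidation and pass the products on to the respiratory chain and to ketone bodies. They were chosen by name: 33 genes of the carnitine shuttle, the mitochondrial and peroxisomal cycles, electron transfer and ketogenesis, with some known targets of the nuclear receptor PPAR-alpha. For 32 of them the array held at least 1 probe set, a group of short probes for 1 transcript, whose annotation names that gene alone. Acsl1 was not analysed here. The 32 genes had 58 probe sets, of 18193 genes named on the array.

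RNA came from liver of C57BL/6J mice and was measured on 4 Affymetrix arrays, all taken 48 h after surgery. The hepatectomy group (2 arrays) had undergone partial hepatectomy, in which part of the liver is removed and the remainder regrows. The sham group (2 arrays) had undergone an operation without that removal, so both groups share strain, time and having had surgery. Whether the stress of surgery was alike in both is not known from the labels. The samples are labelled as mature liver and called biological duplicates. The labels leave out the age of the mice, how much liver was removed, feeding, and how many animals supplied each array. The p-values therefore reflect only how far these arrays spread, which may be partly technical.

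Long-chain fatty acids enter mitochondria as carnitine esters. Inside, each turn of the cycle removes an acetyl unit through a dehydrogenase, a hydratase, a second dehydrogenase and a thiolase, and the electrons of the acyl-CoA dehydrogenases reach the respiratory chain through the electron transfer flavoprotein. Peroxisomes shorten very long and branched chains by a parallel set of enzymes. In liver, PPAR-alpha, a nuclear receptor that binds fatty acids, drives transcription of many of these genes in fasting, and the remnant liver is known to store fat for a time after hepatectomy.

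The tissue label was checked against marker genes. All 11 measured hepatocyte markers, Alb among them, lay above 20.4, the highest signal of 27 bacterial control probe sets, on every array. Their summed signal was 156536 and 149874 in the hepatectomy arrays, against 175058 and 149729 in the sham arrays. Hepatectomy replicate 1 stood apart: the 13 adrenal markers summed to 23827 there, against 248 in hepatectomy replicate 2 and 272 and 271 in the sham arrays, and all 13 were highest on that array. On hepatectomy replicate 2, 10 of these 13, Cyp11b1 and Th among them, lay under the bacterial control level. The 6 measured markers of white fat summed to 7041 and 3111 in the hepatectomy arrays, against 1582 and 1628 in the sham arrays. Of these sums Fabp4 alone held 4391 and 2592, against 1071.5 and 1264. In hepatectomy replicate 2, Pparg lay below both sham arrays and Retn between them. The 5 measured markers of brown fat summed to 479 and 138, against 217 and 231. Ucp1 was at 213 and 11.8, against 15.7 and 25.4. Cox7a1, the 1 brown fat marker above the bacterial control level on every array, lay the other way, at 130 and 94.8, against 140 and 164. Other cell markers differed in both hepatectomy arrays. The 6 measured neutrophil markers summed to 9861 and 3559, against 462 and 370 in the sham arrays. Nearly all of that signal came from S100a8 and S100a9, called higher at 15.2-fold and 14.3-fold. Mpo, Ngp and Camp lay under the bacterial control level on every array, and Elane was at 19.5 and 21.0, against 13.3 and 17.5. Of 8 macrophage markers Marco was called higher, at 10.9-fold, and Csf1r lower, at 0.615 of the sham level, and the 8 summed to 15348 and 14362, against 15456 and 15782. All 8 markers of cell division were called higher and summed to 8406 and 7400.2, against 629 and 782. The part of these cells in the results was not tested. For many of the genes below, the value without hepatectomy replicate 1 is given as well.

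The comparison asked which steps of fatty acid oxidation differ in transcript level 48 h after partial hepatectomy from 48 h after a sham operation. Two-sided limma tests on log2(signal + 8.57), adjusted by Benjamini-Hochberg over 27022 probe sets, called Fgf21, which encodes a hormone of the fasted liver, and Crat, the carnitine acetyltransferase, higher after hepatectomy. Fgf21 was tested only because its hepatectomy arrays carried it past the filter on dim probe sets. Without that filter Crat was the only member called. For all 13 genes of the mitochondrial cycle and of electron transfer, the 95% interval of the difference lay within 1.5-fold either way. Without a mean-variance trend in the model, 4 of the 13 did. Of the 10 cycle genes, 5 (50%, background 28.1%) had both hepatectomy arrays above both sham arrays, and 1 (10%, background 23.2%) below. Their median log2 fold change was 0.15, beside 0.025 over all genes tested. Of 10 peroxisomal genes, 7 had a value below 0, the thiolase Acaa1b the lowest, and 3 above 0, the transporter Abcd2 the highest, and none passed the test. Over all 12560 genes tested, 5911 had a value below 0 and 6649 above 0.

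In all, 2 of 32 genes (6.25%) were called, each by its probe set with the highest mean, against 4.67% of all 12560 genes tested. Both were called higher, against a background of 3.57%, and none lower, against 1.09%. At an unadjusted p under 0.05, 8 were higher (25%, background 12.5%) and 1 lower (3.12%, background 7.47%). Fgf21 passed the filter on dim probe sets only through its hepatectomy arrays, where it is high, so its call adds nothing to the count. Of the 54 member probe sets tested 3 (5.56%) were called, against 3.39% of all probe sets. These shares lie near the background, so the count of calls does not set the genes apart. Both hepatectomy arrays lay above both sham arrays for 14 genes (43.8%, background 28.1%) and below them for 6 (18.8%, background 23.2%), and the groups overlapped for 12. The median log2 fold change, hepatectomy over sham, was 0.08, beside 0.025 over all genes tested. After centring each array on its median it was -0.010, beside -0.06 over all genes.

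**Figure D1:**
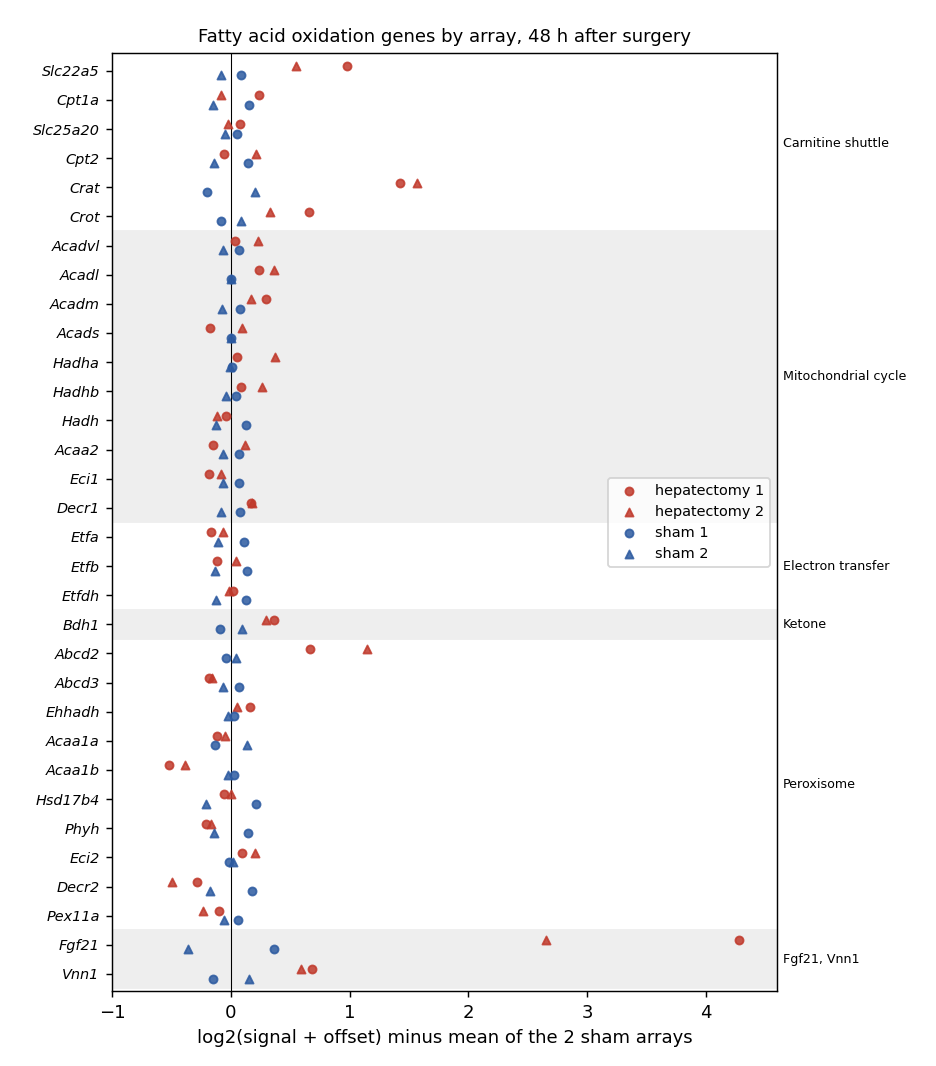
Each row is 1 gene, shown by its probe set with the highest mean, and each point is 1 array, placed at its log2(signal + 8.57) minus the mean of the 2 sham arrays (red for hepatectomy, blue for sham; circles for replicate 1, triangles for replicate 2). Fgf21 and Crat stand far to the right in both hepatectomy arrays, while the points of the mitochondrial cycle and electron transfer genes lie close to 0 in every array.

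The carnitine shuttle was measured by 6 genes, of which 1 was called (16.7%, against 4.67% of all genes tested). All 6 had values above 0, as did 6649 of the 12560 genes tested. For 3 of the 6 (50%, background 28.1%) both hepatectomy arrays lay above both sham arrays. Crat, which moves acetyl and other short acyl groups between CoA and carnitine in mitochondria and peroxisomes, had a signal of 1401 and 1554 in the hepatectomy arrays, against 448 and 598 in the sham arrays. The groups did not overlap and the hepatectomy arrays were alike. Crat rose by 1.495 ± 0.21 on the log2 scale (SE, as in each later value; adjusted p = 0.00815), about 2.82-fold. As in any bulk sample, more cells of a type and more RNA per cell cannot be told apart. Without hepatectomy replicate 1, the array with the adrenal transcripts, the value was 1.57 (adjusted p = 0.00239). The summed white fat markers were also above the sham arrays in hepatectomy replicate 2, at 3111, of which Fabp4 held 2592. Adipoq, Cidec and Lep lay above both sham arrays there as well, Pparg below both and Retn between them. The part of fat in the Crat result was not tested. Without sham replicate 1 the Crat value was 1.29 and no longer called, nor was Crat called in a limma model without a mean-variance trend (adjusted p = 0.0845). A pair of dimmer Crat probe sets also had non-overlapping groups, with log2 fold changes of 0.71 and 0.82, and neither was called (adjusted p = 0.336 and 0.323). Averaged over its probe sets, Crat had a value of 1.01 and was not called (adjusted p = 0.0937).

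Crot, the peroxisomal carnitine octanoyltransferase, which readies shortened acyl chains for export to mitochondria, had a signal of 9944 and 7927 in the hepatectomy arrays, against 5958 and 6675 in the sham arrays. The groups did not overlap, and the log2 fold change of 0.49 ± 0.14 did not pass (adjusted p = 0.118). Slc22a5, the sodium-dependent carnitine importer of the plasma membrane, was at 1934 and 1429.7, against 1032 and 922 in the sham arrays (0.76 ± 0.20; adjusted p = 0.0878). Its dimmer probe set had 170.2 and 119, against 70.1 and 46.0, and a log2 fold change of 1.21 ± 0.35 (adjusted p = 0.12). Both Slc22a5 and Crot were higher in hepatectomy replicate 1, the array in which adrenal and white fat markers summed to 23827 and 7041; the part of those tissues was not tested. Without that array their values were 0.55 (adjusted p = 0.204) and 0.33 (adjusted p = 0.377), and without hepatectomy replicate 2 they were 0.98 and 0.66 and both were called (adjusted p = 0.0114 and 0.0349).

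The mitochondrial carnitine palmitoyltransferase system itself did not pass. Cpt1a, the outer membrane enzyme whose inhibition by malonyl-CoA limits entry, was at 5506 and 4419 in the hepatectomy arrays, against 5204 and 4208 in the sham arrays. The groups overlapped, and the log2 fold change was 0.08 with a 95% interval from -0.30 to 0.45 (adjusted p = 0.87); without hepatectomy replicate 1 it was -0.08. Its other probe sets gave 0.10 and 0.02. Slc25a20, the carrier that exchanges acylcarnitine for carnitine across the inner membrane, had 8639.8 and 8084, against 8516 and 7932, and a difference of 0.02 (interval -0.23 to 0.28). A dimmer Slc25a20 probe set, whose groups did not overlap, gave 0.28 (adjusted p = 0.337). Cpt2, which returns the acyl group to CoA inside the matrix, had 4079.97 and 4905, against 4677 and 3849, and a difference of 0.08 (interval -0.28 to 0.43). A far dimmer Cpt2 probe set gave 1.01 ± 0.49, with 132 and 158 in the hepatectomy arrays, against 123 and 35.3 in the sham arrays (adjusted p = 0.36).

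The acyl-CoA dehydrogenases open the cycle, each on its own range of chain lengths. Acadvl, for very long chains, was at 8696 and 9897 in the hepatectomy arrays, against 8887 and 8080 in the sham arrays, and the groups overlapped (0.13 ± 0.12; adjusted p = 0.659). Acadl, for long chains, was at 7496 and 8182, against 6366 and 6329.9 in the sham arrays, whose values nearly coincided. Its log2 fold change of 0.30 ± 0.11 was the highest of the cycle and did not pass (adjusted p = 0.229; interval 0.04 to 0.56). Acadm, for medium chains, was at 7555 and 6903, against 6480 and 5841 (0.23 ± 0.12; adjusted p = 0.397). Acads, for short chains, was at 2756 and 3310.2, against 3105 and 3115, with both sham arrays between the hepatectomy arrays (-0.04 ± 0.15; adjusted p = 0.926).

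Later steps of the cycle did not pass either. Hadha and Hadhb, which encode the subunits of the trifunctional protein of the inner membrane, had log2 fold changes of 0.21 ± 0.15 and 0.17 ± 0.12. Hadha was at 2833 and 3536 in the hepatectomy arrays, against 2759 and 2716 in the sham arrays, and Hadhb at 7039.9 and 7986, against 6872 and 6452. In both, the hepatectomy arrays lay above the sham arrays by less than they differed from each other, and neither passed (adjusted p = 0.569 and 0.544). Without hepatectomy replicate 1 they were 0.37 and 0.26 (adjusted p = 0.339 and 0.494). Hadh, the hydroxyacyl-CoA dehydrogenase of shorter chains, was measured by 3 probe sets that all lay slightly lower, between -0.12 and -0.06. Acaa2, the matrix thiolase, was measured by 3 probe sets between -0.02 and 0.14, with overlapping groups in each. Of the auxiliary enzymes for unsaturated chains, the isomerase Eci1 was at 5134 and 5517, against 6125 and 5556 (-0.13 ± 0.12), and the reductase Decr1 at 10290.3 and 10403, against 9704.5 and 8685 (0.17 ± 0.11).

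Electron transfer from the dehydrogenases showed no difference beyond the spread between arrays. Etfa and Etfb, the subunits of the electron transfer flavoprotein, had log2 fold changes of -0.12 ± 0.12 and -0.04 ± 0.13. Etfa was at 9208 and 9895 in the hepatectomy arrays, against 11160.0 and 9595 in the sham arrays, and Etfb at 8995 and 10036, against 10714 and 8847. Etfdh, the oxidoreductase that hands the electrons to ubiquinone, was at 6625 and 6479, against 7147 and 6019, a difference of 0.00 (interval -0.29 to 0.29). In all 3 the groups overlapped. A far dimmer Etfdh probe set gave 0.35 ± 0.28 (adjusted p = 0.6).

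The intervals show how large a change these arrays would leave possible. For the 13 genes of the cycle and of electron transfer they ran at the outside from -0.41 to 0.56 on the log2 scale, and over all member genes 23 of 32 (71.9%) had an interval within 1.5-fold either way, against 26.5% of all genes tested. The median standard error of the member genes was 0.126, against 0.227 over all genes. Genes of like signal were not compared, so nothing particular to fatty acid oxidation is read from that contrast. Without a mean-variance trend in the model, the intervals widened and 4 of the 13 lay within 1.5-fold, and after median centring 8 did; without any single array 10 or 11 did.

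**Figure D2:**
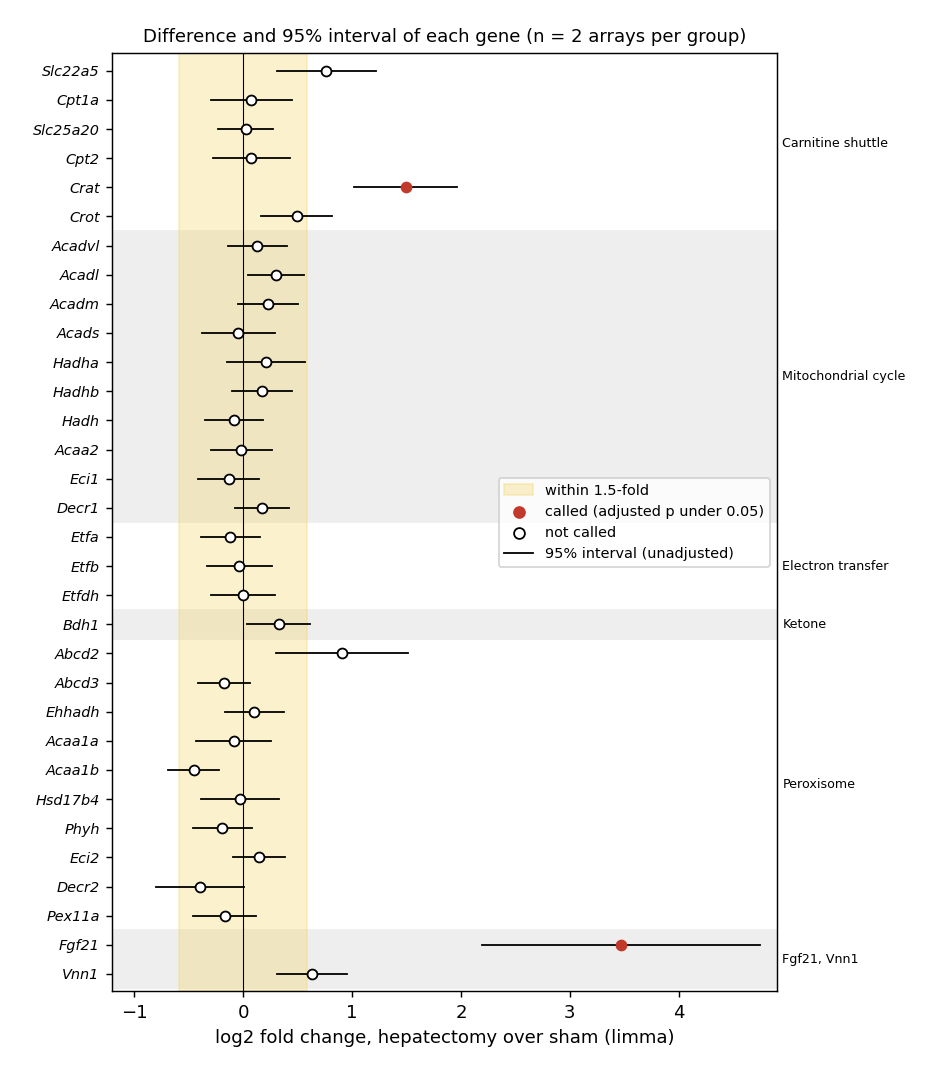
Log2 fold change, hepatectomy over sham, of each gene with its unadjusted 95% interval from limma (n = 2 arrays per group), and the range of 1.5-fold either way shaded. Filled points passed the adjusted test. The rows of the mitochondrial cycle and electron transfer lie wholly inside the shaded range, and Fgf21 and Crat lie wholly outside it.

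Ketone body formation was represented by Bdh1, the mitochondrial dehydrogenase that interconverts acetoacetate and beta-hydroxybutyrate. Its probe set with the highest mean was at 5948 and 5686 in the hepatectomy arrays, against 4353 and 4933 in the sham arrays, and a dimmer one at 1936 and 2659.7, against 1369 and 1612. Both sets of groups stood apart with the hepatectomy arrays higher. The log2 fold changes of 0.33 ± 0.13 and 0.61 ± 0.19 did not pass (adjusted p = 0.243 and 0.161).

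Among peroxisomal genes, Abcd2 differed most. It encodes a transporter of very long chain acyl-CoA in the peroxisomal membrane. Abcd2 was at 295 and 415 in the hepatectomy arrays, against 177 and 188 in the sham arrays, a log2 fold change of 0.91 ± 0.26 (adjusted p = 0.121). A second Abcd2 probe set had 255 and 421, against 129 and 123, and came nearest to a call (1.32 ± 0.30; adjusted p = 0.0587), and the third had 190.0 and 514, against 159 and 150.2 (0.98 ± 0.42; adjusted p = 0.297). All 3 were higher in both hepatectomy arrays and highest in replicate 2, the hepatectomy array with the lower adrenal and fat markers. Without hepatectomy replicate 1 the first of them gave 1.15 (adjusted p = 0.0533). Abcd3, a related transporter of the same membrane, lay the other way, at 10962 and 11135 against 13106 and 11871 in the sham arrays (-0.17 ± 0.10; adjusted p = 0.46).

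The peroxisomal cycle and its partners held 5 genes of 10 (50%, background 23.2%) with both hepatectomy arrays below both sham arrays: Acaa1b, Abcd3, Phyh, Decr2 and Pex11a. Acaa1b, a thiolase of peroxisomes known to respond to PPAR-alpha ligands in mice, was at 10229 and 11258 in the hepatectomy arrays, against 14964 and 14451 in the sham arrays. The gap between the groups was wider than the spread inside either. Its log2 fold change of -0.45 ± 0.10 was the lowest of all members and just missed the threshold (adjusted p = 0.0566; -0.39 and 0.246 without hepatectomy replicate 1). Decr2, the peroxisomal dienoyl-CoA reductase, was at 2001 and 1735, against 2773 and 2160.3 (-0.39 ± 0.18; adjusted p = 0.316). Phyh, which starts the breakdown of the branched phytanic acid, was at 14025 and 14455, against 17904 and 14721 (-0.19 ± 0.12). Pex11a, a factor of peroxisome division, was at 4816 and 4400.4, against 5388 and 4975 (-0.17 ± 0.13), with its other probe set at -0.22.

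The remaining peroxisomal enzymes lay close to the sham level. Ehhadh, the bifunctional enzyme of straight chains, was at 6389 and 5920.1 in the hepatectomy arrays, against 5814 and 5626 in the sham arrays (0.10 ± 0.12). Hsd17b4, the bifunctional enzyme of branched chains, was at 5700.2 and 5940.2, against 6845 and 5135 (-0.03 ± 0.15). Eci2, an enoyl-CoA isomerase, was at 10395 and 11191, against 9629 and 9865 (0.15 ± 0.10). Acaa1a, the paralog of Acaa1b, was at 2768 and 2887, against 2725 and 3299 (-0.08 ± 0.15). Both Acaa1a probe sets carry the identifier ending _x_at, which marks probes that may match other transcripts, so their signal may hold Acaa1b as well.

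The largest difference was in Fgf21, a secreted hormone that liver releases in fasting and that signals through the co-receptor beta-klotho. Fgf21 was at 374 and 115 in the hepatectomy arrays, against 16.7 and 6.77 in the sham arrays. Fgf21 was called higher after hepatectomy (adjusted p = 0.0155). Both sham arrays lay under the bacterial control level of 20.4, so the fold was taken against that level. The mean log2 signal of the hepatectomy arrays lay 10.2-fold above it, a figure that does not allow for their spread. In the limma fit, the 95% interval of the fold ran from 4.56 to 26.8. Both sham values also lay under the filter on dim probe sets, which the gene passed through its hepatectomy arrays alone. The hepatectomy arrays differed from each other more than in any other member, and replicate 1, with the summed adrenal signal of 23827 and fat signal of 7041, held the higher value; the part of those tissues was not tested. Without that array Fgf21 lay 5.66-fold above the bacterial control level, and without hepatectomy replicate 2 it lay 18.3-fold above that level. Without sham replicate 2 it was not called (adjusted p = 0.0737), nor without the filter on dim probe sets (0.095) or without a mean-variance trend (0.108).

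The promoter of Fgf21 is shown because that gene carries the largest change. RefSeq places it in GRCm38.p6 at chr7:45615441-45615740 on the minus strand, from 250 bases before to 50 after the transcription start. Capitals mark TTGCATCA, the letters of the element that C/EBP and ATF proteins bind as a pair, starting 139 bases before the start, and TATAAA, the TATA box, starting 28 bases before it; both were searched on both strands, do not overlap, and were chosen after the sequence was seen.
Fgf21: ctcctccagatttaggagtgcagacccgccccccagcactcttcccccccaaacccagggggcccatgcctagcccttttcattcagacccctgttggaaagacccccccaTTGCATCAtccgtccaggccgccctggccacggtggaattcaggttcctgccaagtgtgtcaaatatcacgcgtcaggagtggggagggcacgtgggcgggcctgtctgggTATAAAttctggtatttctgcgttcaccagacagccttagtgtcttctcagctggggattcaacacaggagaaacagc
TTGCATCA was found in 0.895% of 32851 promoters of the same length, Phyh the other member among them, and TATAAA in 13.6%. The response element of PPAR-alpha, AGGTCANAGGTCA, was found in 0.0396% of promoters, and AGGNCANAGGNCA, which takes any base at the fourth place of each repeat, in 0.381%. Neither was in the 30 promoters found for 27 of the member genes, and the single hexamer AGGTCA, which lies inside the first of these forms, was in those of Acadm, Acadvl, Cpt1a and Phyh (13.3% of the 30, against 16.3% of all). A match is a string of letters and not a measured site, and elements outside these windows were not searched.

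Vnn1 encodes pantetheinase, a membrane enzyme that releases pantothenic acid and is a known target of PPAR-alpha in liver. Its probe set with the highest mean was at 7424 and 6969 in the hepatectomy arrays, against 4156 and 5154 in the sham arrays, a log2 fold change of 0.64 ± 0.14 that just missed the threshold (adjusted p = 0.052). The other probe set was at 5769 and 5088, against 3348 and 3699, and was called at 0.62 ± 0.13 (adjusted p = 0.0492). Both gave about the same difference, on opposite sides of the threshold, with groups that did not overlap. Without hepatectomy replicate 1 the first of them gave 0.59 (adjusted p = 0.112). Of 16 member genes with several tested probe sets, Vnn1 and Crat were the 2 whose probe sets differed in their call.

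**Figure D3:**
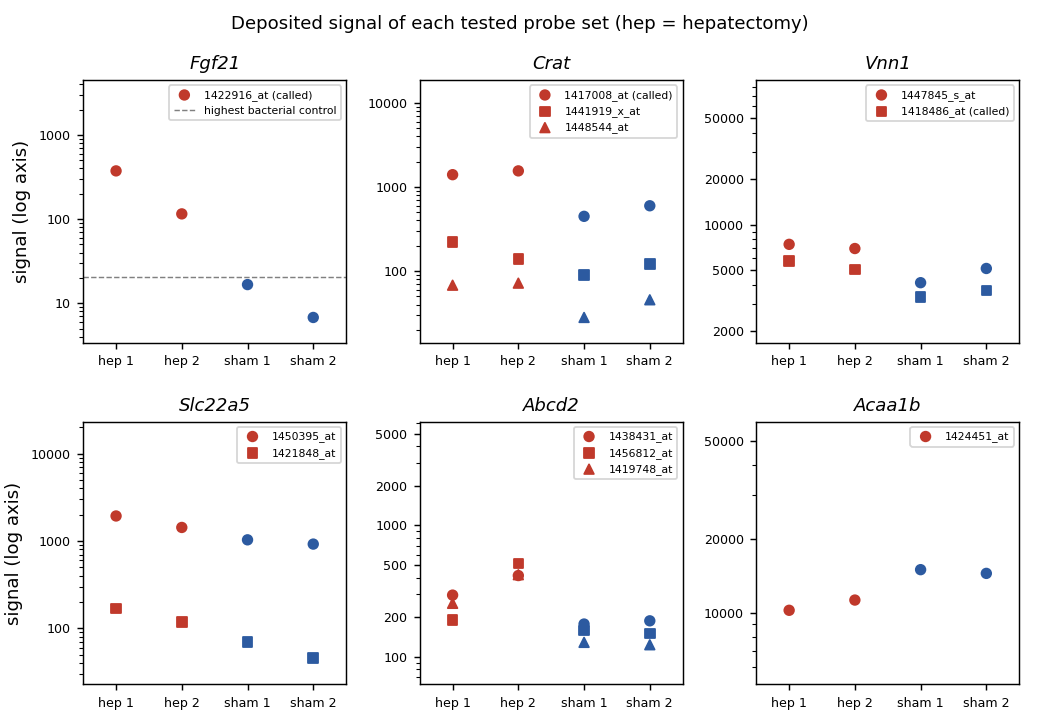
Deposited signal on a log axis of every tested probe set of 6 genes, with the hepatectomy arrays (red) left of the sham arrays (blue) and a marker shape for each probe set. Probe sets of 1 gene have different brightness and are not compared with each other; the dashed line is the bacterial control level of 20.4. Fgf21, Crat, Vnn1, Slc22a5 and Abcd2 are higher in both hepatectomy arrays, and Acaa1b is lower in both.

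The other genes of the pathway were read from 3 lists. Among other enzymes and transporters of fatty acid and ketone metabolism, 1 of 44 tested genes was called (2.27%, against 4.67% of all genes): Slc16a1, the plasma membrane carrier of lactate and ketone bodies, rose to 4736 and 3900.3 in the hepatectomy arrays, against 2451 and 2294 in the sham arrays (0.86 ± 0.15; adjusted p = 0.0214; 0.72 without hepatectomy replicate 1). Without either sham array its call was lost (adjusted p = 0.0941 and 0.107). At an unadjusted p under 0.05, 17 genes of that list were lower (38.6%, background 7.47%) and 3 higher (6.82%, background 12.5%), its median was -0.20, and for 20 (45.5%) both hepatectomy arrays lay below both sham arrays, against 23.2% of all genes. In the list of other peroxisomal proteins, which holds the import machinery and matrix enzymes such as catalase, none of 31 tested genes was called, with 1 higher (3.23%) and 5 lower (16.1%) at an unadjusted p under 0.05 by the same limma fit. The median there was -0.04. Baat, a gene of that list outside the naming rule, had a dimmer probe set called lower (-0.68 ± 0.14; limma adjusted p = 0.0422). Its brighter probe set, which stood for the gene, was not called (-0.52 ± 0.13; adjusted p = 0.0731). Some alternative fits called Baat lower as well.

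The last list held PPAR-alpha, its partners, co-regulators, receptors of Fgf21 and other known targets. It was chosen with earlier results of these data known, so its share of calls is a description only. Of 30 tested genes 6 were called (20%, against 4.67% of all genes), 5 higher and 1 lower. At an unadjusted p under 0.05 by the same limma fit, 9 were higher (30%, background 12.5%) and 4 lower (13.3%, background 7.47%). The median was 0.14, with 18 values above 0 and 12 below. Acot1, Acot2 and Acot3 rose. They encode thioesterases that split acyl-CoA in the cytosol, mitochondria and peroxisomes, in that order. The only Acot3 probe set carries the identifier ending _s_at, which marks probes that may match several transcripts, so its signal may hold other Acot transcripts. In the fit without _x_at and _s_at probe sets Acot3 was not tested. Acot3 was at 3154 and 2969 in the hepatectomy arrays, against 674 and 420.2 in the sham arrays (2.50 ± 0.23; adjusted p = 0.00145), and Acot1 at 2929 and 3002, against 1176 and 1602 (1.11 ± 0.18; adjusted p = 0.0172; 0.105 without sham replicate 1). Pdk4, the kinase that turns off pyruvate dehydrogenase and so spares glucose, was at 8436 and 4366, against 1385 and 1305 (2.17 ± 0.27; adjusted p = 0.00537; 1.69 without hepatectomy replicate 1). Acot2 (2.01 ± 0.30; adjusted p = 0.0114) was likewise higher in hepatectomy replicate 1, at 6089 and 2948, against 1096 and 999.5, and without that array it was 1.49. Its call was lost without either sham array (adjusted p = 0.053 and 0.0555). A second Acot2 probe set gave 0.33 and was not called (adjusted p = 0.763). Plin2, a lipid droplet coat protein, was at 11254 and 9548, against 7005 and 6481 (0.62 ± 0.12; adjusted p = 0.0361), a call lost without hepatectomy replicate 1 (adjusted p = 0.135) and without either sham array (0.085 and 0.122).

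Acacb, the mitochondrial acetyl-CoA carboxylase whose malonyl-CoA inhibits Cpt1a, fell to 933 and 1068 in the hepatectomy arrays, against 3732 and 2125 in the sham arrays (-1.49 ± 0.26; adjusted p = 0.0203; 0.115 without sham replicate 1). Both hepatectomy arrays lay below both sham arrays, and the sham arrays differed widely. Ppara itself was at 1785 and 2758, against 2936 and 2778, and did not pass (-0.36 ± 0.21; adjusted p = 0.446); its 3 probe sets ranged from -0.58 to -0.36. Without hepatectomy replicate 1 the difference was -0.05. Ppargc1a, a co-activator of the receptor, was at 995 and 426, against 584 and 461, with the sham arrays between the hepatectomy arrays (0.32 ± 0.37; adjusted p = 0.736); without hepatectomy replicate 1 it was -0.28. Klb, which encodes beta-klotho, the co-receptor of Fgf21, was at 964 and 1200.4, against 1392 and 1468 (-0.41 ± 0.18; adjusted p = 0.31); without hepatectomy replicate 1 it was -0.25.

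**Figure D4:**
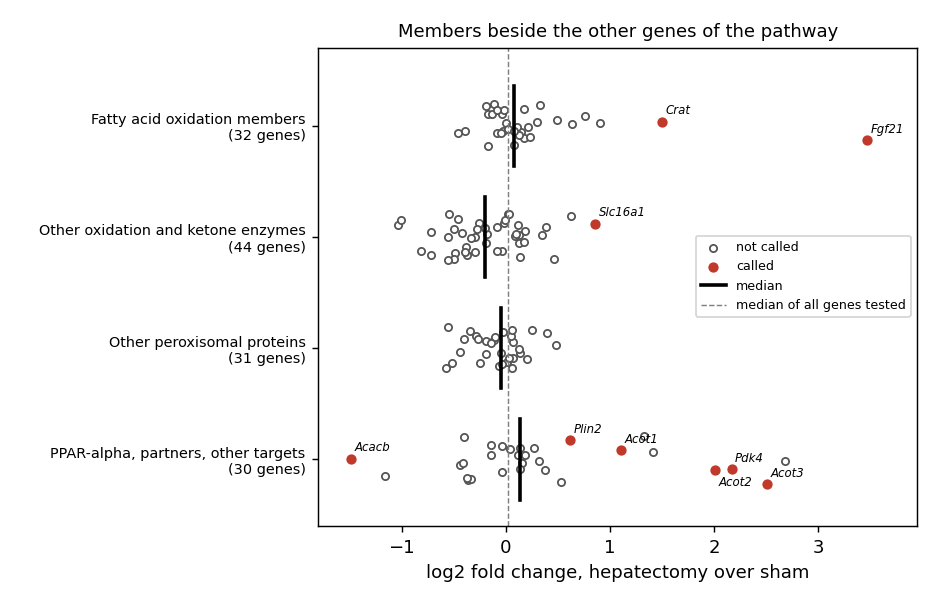
Log2 fold change, hepatectomy over sham, of the 32 fatty acid oxidation genes (top row) and of the other 3 lists, with 1 point per tested gene, filled where called and named there. The bars are list medians and the dashed line is the median of all genes tested; vertical scatter within a row has no meaning. Most called genes lie in the bottom row, which holds PPAR-alpha, its partners, co-regulators, Fgf21 receptors and other targets. The lists were chosen with earlier results of these data known.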

How the data were processed

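The authors deposited linear intensities, 1 signal for each of 45101 probe sets on 4 arrays. The submitters' processing notes name GCOS 1.4 as the software; its settings and detection calls were not used here. With 2% trimmed at each end, every array had a mean of 500.003, so the authors had scaled the arrays to a common mean, and that scaling was kept. The 64 control probe sets were left out, and 34945 others had 1 symbol in the platform annotation. An offset of 8.57 (the 20th percentile) was added before log2, which understates changes of dim genes; probe sets under the 40th percentile of mean log2 (5.09) were left out, including 4 of 58 member probe sets. Hepatectomy was compared with sham by lmFit and eBayes of limma 3.58.1 (R 4.3.3) with a mean-variance trend, with Benjamini-Hochberg adjustment over all 27022 tested probe sets and a gene was called under an adjusted p of 0.05. Residual degrees of freedom were 2 and prior ones 6.02. An exact two-sided permutation test of 2 against 2 arrays cannot go below p = 0.333 and was not used. A gene was read from its tested probe set with the highest mean. Where both sham arrays lay under 20.4, the highest signal of 27 bacterial control probe sets, the fold was taken against that level. It used the mean log2 signal of the hepatectomy arrays, without allowance for their spread. Any member could be named, and of the other lists the called genes with Ppara, Ppargc1a and Klb; genes outside that rule are marked. The code was tested on simulated data. Members, lists and tests were chosen with earlier results of these data known. Number of arrays limits the precision; no scan date or batch was given.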

Additional observations from a re-analysis of the deposited data

How the results depend on the processing

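The fit was repeated under 15 alternatives. With 2 arrays per group, the model sets most limits: a fit that leaves out an array assumes that the lone array of its group varies like the others. Leaving out each array in turn gave from 341 to 2012 called probe sets instead of 916, from 1 to 5 member genes instead of 2, from 3 to 20 genes of the other lists instead of 7, and a member median from 0.013 to 0.15 instead of 0.08. Of these counts, the highest came without hepatectomy replicate 2 and the lowest without sham replicate 1. Without the filter, 308 probe sets, 1 member and 2 other genes were called; without a trend 258, 0 and 1 (4 of the 13 core genes then had intervals within 1.5-fold); with probe sets averaged per gene 523, 1 and 4. Quantile normalization called 4 members, and robust eBayes 4 members and 12 other genes. Median centring moved the member median to -0.010 and left 8 core genes within 1.5-fold. Replicate numbers are shared by the groups, but nothing in the labels pairs them; the difference between replicates correlated at 0.10 across probe sets between the groups. With the replicate number as a block, 1943 probe sets, 5 members and 14 other genes were called. No called member changed sign under any of these; 10 uncalled ones did, all within 0.085 of 0 in the 4-array fit, and 26 were called in no alternative. The intervals of the core genes were added after the data were seen. The causes of these shifts were not tested.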

Other observations

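The steps that turn propionyl-CoA, the end product of odd and branched chains, into succinyl-CoA all had values below 0; they were picked after their values were seen, and none passed the test. Pcca, a subunit of propionyl-CoA carboxylase, was at 2125 and 1878 in the hepatectomy arrays, against 2909 and 2609 in the sham arrays (log2 fold change -0.46 ± 0.15 SE; limma adjusted p = 0.17). Its partner Pccb (-0.37; adjusted p = 0.287), the epimerase Mcee (-0.38; adjusted p = 0.259) and the mutase Mmut (-0.29; adjusted p = 0.28) also had both hepatectomy arrays below both sham arrays, as did 23.2% of all genes tested and 20 of 44 (45.5%) in their own list. Without hepatectomy replicate 1, the array with adrenal and fat transcripts, the 4 values were -0.55, -0.24, -0.24 and -0.26, in the order given.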
